A study of Mus musculus with 8 samples.

Results

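The mitochondrial ribosomal protein genes of mouse skin were described in 8 RNA-seq libraries, as every gene of the count tables whose symbol begins with Mrpl or Mrps followed by a digit. The rule took 76 of 23432 listed genes, 47 with a large-subunit symbol (Mrpl) and 29 with a small-subunit symbol (Mrps). All 76 passed the filter on low counts in every comparison. Genes of the same ribosome under other symbols, such as Dap3 and Mrp63, were outside the rule and are given as context.

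Mitochondria carry ribosomes of their own, which translate the few proteins encoded in mitochondrial DNA, all of them core subunits of the respiratory chain and the ATP synthase. Their RNAs come from the mitochondrial genome, but every protein of these ribosomes is encoded in the nucleus, made in the cytosol and imported. The small subunit binds the mRNA and decodes it, the large subunit joins the amino acids and holds the nascent chain at the inner membrane, and many proteins of both have no bacterial counterpart. Symbol and place do not always match: the proteins of Mrps30 and Mrps18a sit in the large subunit, and that of Mrps36 is a part of the 2-oxoglutarate dehydrogenase complex.

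The study asked what the lysine acetyltransferase MOF (encoded by Kat8), which acetylates histone H4 at lysine 16, does in skin, and whether KANSL1, a subunit of the NSL complex that holds MOF, has a like role. MOF cKO embryos of embryonic stage E16.5 were compared with E16.5 controls, and Kansl1 cKO newborns of postnatal stage P0.5 with P0.5 controls, with 2 libraries in each of the 4 groups. In both knockouts the floxed gene was deleted by Cre under the keratin 14 promoter, which is active in epithelial cells, so that other cells in a sample kept the gene, and the Kansl1 allele lost exon 3. Controls were wildtype or heterozygous littermates. All E16.5 libraries, controls included, came from back skin cells sorted for the K14-H2BGFP reporter, whereas all P0.5 libraries came from whole epidermis separated with Dispase, with no sort. Nothing in the labels ties a library to a single animal, so that p-values measure the spread between these libraries. The 2 libraries of each control group differ in sex by the markers given below, so they did not come from a single animal. In the knockout groups, whose 2 libraries share a sex, the spread may be technical.

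Between 9108709 and 27561688 read counts fell on genes in each library, and 1 count was worth 0.0299 to 0.122 CPM (counts scaled to a common library size) on the trimmed mean of M values (TMM) scale set over the 8 libraries. Keratinocyte markers summed to 33900 to 35700 CPM in E16.5 control and 34900 to 42400 in MOF cKO. At P0.5 they summed to 61100 to 93800 CPM in control and 62500 to 91500 in Kansl1 cKO. The 15 macrophage markers, none of them at 0 in a whole group, summed to 22.1 to 45.1 CPM in E16.5 control, 116 to 147 in MOF cKO, 283 to 328 in P0.5 control and 425 to 460 in Kansl1 cKO. The 8 dermal fibroblast markers summed to 1630 to 2110 CPM in E16.5 control and 2040 to 2460 in MOF cKO. Without overlap, 6 lay above control there (75%, against 35% of all genes) and 2 below (median log2 change 1.03). At P0.5 they summed to 1900 to 2640 CPM in control and 1670 to 1990 in Kansl1 cKO. Without overlap, 6 lay below control there (75%, against 20.5% of all genes) and 2 above (median -1.56). Melanocyte markers summed to 492 to 547 CPM in P0.5 control and 1080 to 1210 in Kansl1 cKO, and muscle markers to 3.69 to 171 CPM in the 2 P0.5 controls, against 1.64 to 2.34 in Kansl1 cKO. By Xist and Ddx3y, E16.5 control replicate 1 was female and the other 3 E16.5 libraries male, and P0.5 control replicate 2 was male and the other 3 P0.5 libraries female. The part of these differences in the results below was not tested. In bulk libraries, fewer cells of a type and less RNA per cell cannot be told apart. The gene-level counts of Kat8 (log2 change -0.14 ± 0.18 SE in MOF cKO) and Kansl1 (-0.52 ± 0.17 SE in Kansl1 cKO) passed no threshold in edgeR's quasi-likelihood test (adjusted p = 0.554 and 0.242). Those of Kansl1 include exons outside the deletion, and which Kat8 exons are removed is not given in the sources used here. These counts therefore do not check the labels.

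Promoters were read for the genes on which the results turn, from RefSeq on GRCm38.p6, as the 250 bases before the transcription start. The 3 MRPS18 paralogs are shown because they stand apart from each other below, Mrpl17 as the large-subunit gene that rose most in MOF cKO, and Mrpl35 as the gene that fell most. Capitals mark matches on either strand to the ETS motif CCGGAAG, the NRF1 motif GCATGCGC and the CCAAT box. The RFX motif GTTGCC and the YY1 motif AAGATGG, also searched, had no match in the promoters printed. Other genes named below did hold them: the Mrpl46 promoter, not printed, had an RFX match at -12 from its RefSeq start. This RefSeq start lies inside the GENCODE bounds of Mrpl46, which are used below for the distance to its neighbour Mrps11. The Mrps11 promoter held an RFX and a YY1 match. None of the marked matches overlapped another. The sequences are printed 5′ to 3′ on the strand of the gene.
Mrps18a (chr17:46110754-46111003, plus strand): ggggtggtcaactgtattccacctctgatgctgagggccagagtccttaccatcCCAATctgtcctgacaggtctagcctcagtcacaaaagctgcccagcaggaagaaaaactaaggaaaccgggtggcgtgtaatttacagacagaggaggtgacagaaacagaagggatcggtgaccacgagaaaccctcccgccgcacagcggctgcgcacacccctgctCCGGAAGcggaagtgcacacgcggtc
Mrps18b (chr17:35916441-35916690, minus strand): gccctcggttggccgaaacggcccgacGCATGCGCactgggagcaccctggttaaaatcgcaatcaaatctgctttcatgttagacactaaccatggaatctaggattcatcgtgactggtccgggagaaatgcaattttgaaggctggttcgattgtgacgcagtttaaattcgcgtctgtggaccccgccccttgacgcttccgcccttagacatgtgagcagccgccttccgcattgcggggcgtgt
Mrps18c (chr5:100798509-100798758, plus strand): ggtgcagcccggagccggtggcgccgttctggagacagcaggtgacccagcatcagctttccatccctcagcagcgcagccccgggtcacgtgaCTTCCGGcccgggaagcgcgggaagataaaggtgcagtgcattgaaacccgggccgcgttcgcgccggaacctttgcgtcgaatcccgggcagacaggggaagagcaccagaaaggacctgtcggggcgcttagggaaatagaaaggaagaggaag
Mrpl17 (chr7:105811088-105811337, minus strand): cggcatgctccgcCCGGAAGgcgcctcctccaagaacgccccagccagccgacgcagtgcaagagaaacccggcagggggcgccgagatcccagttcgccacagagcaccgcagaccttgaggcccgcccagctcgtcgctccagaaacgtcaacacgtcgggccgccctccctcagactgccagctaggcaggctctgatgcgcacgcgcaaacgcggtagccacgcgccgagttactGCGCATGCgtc
Mrpl35 (chr6:71823785-71824034, minus strand): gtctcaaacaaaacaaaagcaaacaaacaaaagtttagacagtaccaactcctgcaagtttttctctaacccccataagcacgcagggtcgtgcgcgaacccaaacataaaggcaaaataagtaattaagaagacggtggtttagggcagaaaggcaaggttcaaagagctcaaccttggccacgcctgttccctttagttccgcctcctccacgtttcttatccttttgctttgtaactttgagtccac

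A RefSeq promoter was at hand for 67 of the 76 genes, 73 promoters in all. A gene was counted if any of its promoters matched, while the background counts each promoter singly, so that the shares are unlike measures. The median GC was 58.4% over the 73 promoters, against 52.4% over all, and its part in the matches was not tested. The ETS motif was in the promoters of 17 of the 67 genes (25.4%), against 6.91% of all 32851 promoters of the same length. The NRF1 motif was in 8 (11.9%, against 2.26%) and the YY1 motif in 6 (8.96%, against 4.49%). The CCAAT box was in 25 (37.3%, against 33.9%), and the RFX motif in 7 (10.4%), the same share as over all promoters. The Mrpl35 promoter printed above held none of the 5. It precedes a RefSeq start that lies inside the GENCODE bounds of the gene (chr6:71812997-71826969, minus strand). The bases before the outer GENCODE bound of Mrpl35 were not searched. The promoters printed for Mrps18a, Mrps18c and Mrpl17 also run partly inside the GENCODE bounds of their genes. A match is a run of letters and not a site shown to be bound.

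The 76 genes took a smaller share of the counts in each knockout than in its controls. The share of gene counts that fell on them was 0.274% and 0.267% in the E16.5 control libraries and 0.216% in both MOF cKO libraries, and 0.243% and 0.284% in the P0.5 control libraries against 0.222% and 0.201% in Kansl1 cKO. Both libraries of each knockout lay below both of their controls. On the TMM scale, which divides out a shift shared by most genes, the summed level was 2244 ± 22.6 CPM (SD, n = 2) in E16.5 control and 2218 ± 44.5 in MOF cKO, but 2768 ± 79.9 in P0.5 control and 2355 ± 29.7 in Kansl1 cKO. The difference between E16.5 groups was therefore seen in the share of the library and not in the TMM-scaled sum, whereas the P0.5 groups did not overlap on either measure.

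Large-subunit genes took about the same multiple of the small-subunit counts in every library. The log2 ratio of the counts on the 47 large-subunit genes to those on the 29 small-subunit genes was 0.96 and 1.01 in E16.5 control, 0.95 and 0.90 in MOF cKO, 1.08 and 1.07 in P0.5 control, and 1.09 and 1.05 in Kansl1 cKO. MOF cKO lay slightly below E16.5 control, and with 2 libraries a group no exact permutation test could reach the threshold, while Kansl1 cKO overlapped P0.5 control. The P0.5 libraries lay above the E16.5 libraries.

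**Figure D1:**
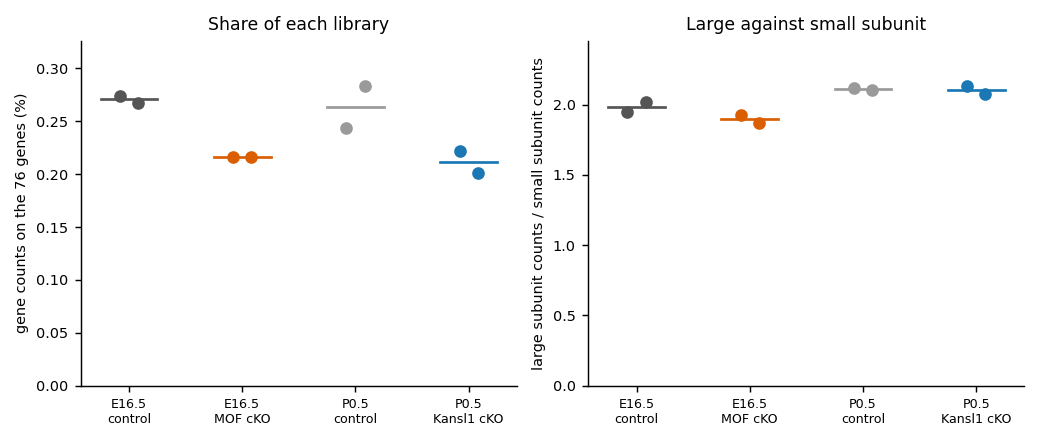
Left, the percentage of each library's gene counts on the 76 mitochondrial ribosomal protein genes; right, the linear ratio of large-subunit to small-subunit counts, both axes starting at 0, with 1 point per library and a bar at the mean of 2. The share lies at 0.216% in both MOF cKO libraries, below both E16.5 controls, while the subunit ratio stays between 1.87 and 2.13 in all 8 libraries.

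Levels were compared between genes only per kilobase (kb) of exon, with exon lengths from GENCODE M21. In E16.5 control the highest mean levels were those of Mrps21 (69.3 CPM per kb), Mrpl52 (59.3) and Mrpl33 (57.8), and the lowest those of Mrpl47 (2.02), Mrpl1 (3.57) and Mrpl17 (3.68), around a median of 20.9. In MOF cKO the order was headed by Mrpl12 (91.0), Mrpl52 (74.7) and Mrpl54 (65.1), and Mrpl47 (1.92), Mrpl1 (2.24) and Mrpl35 (2.27) came last. At P0.5, Mrpl33, Mrpl42 and Mrpl30 led in both groups, at 130, 93.4 and 89.1 CPM per kb in control and 113, 85.9 and 77.9 in Kansl1 cKO. The lowest there were Mrps25 (2.07), Mrpl47 (4.06) and Mrpl1 (4.61) in control and Mrps25 (1.99), Mrpl47 (3.07) and Mrpl19 (3.82) in Kansl1 cKO. The annotated exons of Mrpl17 span 7605 bases and those of Mrps25 6073, far above the median of 1340 bases over the 76 genes, and unused annotated exon lowers a value per kb.

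In MOF cKO the mitochondrial ribosomal protein genes changed in both directions. A gene was called where edgeR's quasi-likelihood test gave an adjusted p of 0.01 or lower over all genes tested and a fold change over 1.5. In MOF cKO 3 of the 76 genes fell (3.95%, against 9.59% of all 13956 genes tested called lower) and 7 rose (9.21%, against 10% called higher), so that neither share exceeded the background. This did not hold for the lower calls under 3 alternatives. With library size alone in place of TMM, 21 were called lower (27.6%, against 19.7% of all genes) and 2 higher (2.63%, against 5.51%). With the replicate number as a block 14 were lower (18.4%, against 16.2%), and with every gene that had at least 1 count tested, 12 were (15.8%, against 12.5%). Below the threshold the values leaned downward: 50 of the 76 were lower and 26 higher, with 50.9% of all genes tested lower. An unadjusted p under 0.05 was found in 25 of the lower and 9 of the higher, against 3506 lower and 3314 higher of all 13956 genes. The median log2 change was -0.12, against -0.02 for all genes tested. In 39 genes (51.3%) both MOF cKO libraries lay below both controls, against 37.7% of all genes, and in 20 (26.3%) both lay above, against 35% of all genes.

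The rise of Mrps18b was the steepest. This gene (chr17:35910379-35916389, minus strand, mm10) encodes a small-subunit protein related to bacterial S18, at a place in the ribosome that bacteria do not fill. Its level was 22.7 CPM in both E16.5 controls and 54.96 and 59.4 in MOF cKO. The MOF cKO libraries lay far above the controls, with a log2 change of 1.33 ± 0.12 SE, or 2.52-fold (adjusted p = 0.000565, edgeR's quasi-likelihood test). Of its exonic bases 59.1% also lie in Gm16279 on the opposite strand, and the strand setting of the counting is not given in the sources used here, so that reads of the pair may not be told apart.

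Mrpl17, a large-subunit protein with a bacterial counterpart, was at 26.9 and 29.1 CPM in E16.5 control and 53.9 and 67.3 in MOF cKO. The MOF cKO libraries differed from each other more than the controls did, and both were above them (log2 change 1.11 ± 0.15 SE, adjusted p = 0.00152, edgeR's quasi-likelihood test). Mrpl12, a stalk protein that recruits translation factors and is also known to bind the mitochondrial RNA polymerase, was the most abundant of the 76 by CPM at this stage. It read 69.2 and 69.7 CPM in control and 117 and 122 in MOF cKO, with no overlap (0.79 ± 0.10 SE, adjusted p = 0.0016, same test).

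Mrpl54, a large-subunit protein particular to mitochondria, rose from 22.5 and 21.7 CPM to 38.1 and 40.6 (log2 change 0.83). Mrps34, a small-subunit protein needed for the stability of that subunit, rose from 20.8 and 17.1 CPM to 33.2 and 32.7 (0.80). In both the 2 groups stood clear of each other. Mrps7, of the head of the small subunit, rose from 47.2 and 39.2 CPM to 71.1 and 68.9 (0.69), and Mrps6, of its platform, from 17.7 and 17.3 to 28.99 and 28.37 (0.71). These 4 had adjusted p of 0.00299 to 0.00712 in edgeR's quasi-likelihood test. Of the exonic bases of Mrps6, 36.1% are shared with genes on the same strand, Slc5a3 among them. Scaled by library size alone, under which the median of all genes tested moved to -0.32, Mrpl12, Mrpl54, Mrps34, Mrps6 and Mrps7 stayed higher but lost their call, and Mrps18b and Mrpl17 kept it. The calls of Mrps34 and Mrps7 were also lost without E16.5 control replicate 2 or either MOF cKO library, and that of Mrps6 without any 1 of the 4 and in the fit over 8 libraries.

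Mrpl35, Mrps36 and Mrpl45 were the 3 genes that fell. Mrpl35 (chr6:71812997-71826969, minus strand), a large-subunit protein with a bacterial counterpart, was at 19.7 and 17.5 CPM in control and 8.24 and 8.66 in MOF cKO. Both MOF cKO libraries were at less than any control value (log2 change -1.14 ± 0.18 SE, adjusted p = 0.00312, edgeR's quasi-likelihood test), a 2.20-fold difference. Mrps36, whose product belongs to the 2-oxoglutarate dehydrogenase complex of the citric acid cycle, went from 15.7 and 16.4 CPM to 8.10 and 6.52 (-1.13 ± 0.20 SE, adjusted p = 0.00484, same test). Mrpl45, which ties the large subunit to the inner membrane, read 35.3 CPM in both controls and 23.2 and 17.4 in MOF cKO (-0.80 ± 0.17 SE, adjusted p = 0.00944, same test). The groups did not overlap for any of these, though the 2 MOF cKO values of Mrpl45 were wide apart, and without MOF cKO replicate 2 the calls of Mrpl45 and Mrps36 were lost. Mrpl45 also lost its call with RLE factors. Of the 26 genes whose proteins sit in the small subunit, 0 were called lower and 4 higher (15.4%, against 10% of all genes), with Mrps11 just short of the threshold on the lower side.

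**Figure D2:**
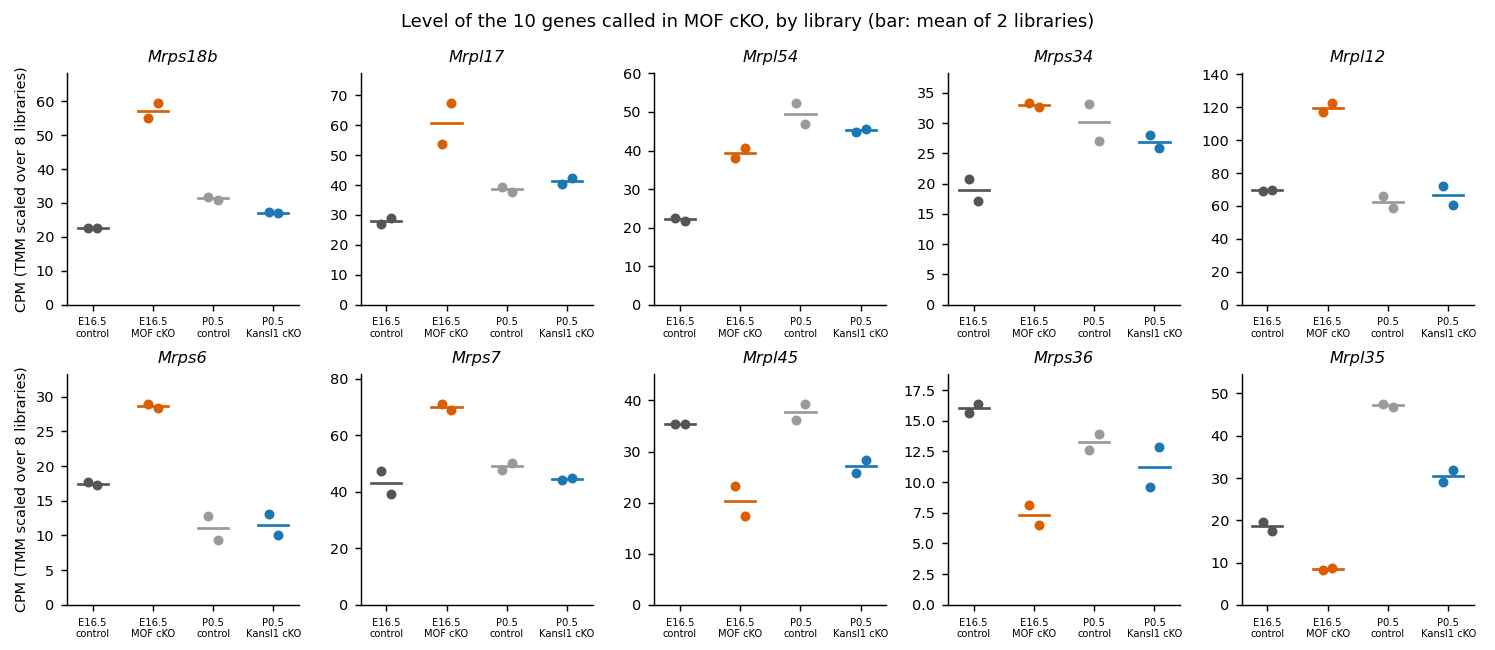
Level in CPM, TMM scaled over 8 libraries, of the 10 genes called in MOF cKO, with 1 point per library, a bar at the mean of 2 and each axis starting at 0. Mrps18b reads 54.96 and 59.4 CPM in MOF cKO and 22.7 in both E16.5 controls, and Mrpl35 reads 8.24 and 8.66 against 19.7 and 17.5.

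Short of the threshold, Mrps11, of the small-subunit platform, read 20.43 and 25.07 CPM in control and 12.97 and 13.50 in MOF cKO (adjusted p = 0.0109, edgeR's quasi-likelihood test). Mrps33, particular to mitochondria, read 33.06 and 35.05 CPM against 23.0 and 21.7 (adjusted p = 0.011, same test). Neither overlapped between groups. The log2 changes were -0.78 for Mrps11 and -0.61 for Mrps33.

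By role, values were lower throughout in some groups in MOF cKO and mixed in others. All 6 genes listed for the peptide exit and membrane contact (Mrpl22, Mrpl23, Mrpl24, Mrpl39, Mrpl44 and Mrpl45) had lower values, with a median log2 change of -0.45, and 1 was called. The list leaves out Mrpl17, whose bacterial counterpart also lies near the exit and which rose. Mrpl22 stood at 16.6 and 16.1 CPM in E16.5 control and 10.1 and 9.76 in the knockout. Mrpl23 overlapped between the groups at 45.3 and 42.7 against 47.05 and 36.22. The 5 genes near the peptidyl transferase centre (Mrpl2, Mrpl3, Mrpl4, Mrpl16 and Mrpl27) were also lower, from -0.60 for Mrpl3 to -0.04 for Mrpl2, with none called. Of the stalk, Mrpl12 rose, while Mrpl10 and Mrpl11, which anchor and neighbour it, had values of -0.28 and -0.71 and were not called. The central protuberance (Mrpl18, Mrpl38, Mrpl40, Mrpl46 and Mrpl48) spread from -0.43 for Mrpl40 to 0.25 for Mrpl18 and held no call. Of the decoding region and head of the small subunit, Mrps7 rose, and Mrps2, Mrps5, Mrps9 and Mrps12 lay between -0.54 and 0.11. Mrps30, the other large-subunit protein with a small-subunit symbol, differed by -0.02.

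Large and small subunits did not separate. The median log2 change in MOF cKO was -0.11 for the 47 large-subunit genes, of which 2 fell and 3 rose, and -0.16 for the 29 small-subunit genes, of which 1 fell and 4 rose. With genes placed by where their proteins sit, the medians were -0.11 over 49 large-subunit and -0.14 over 26 small-subunit genes. The 46 genes with a bacterial counterpart had a median of -0.14 and the 29 particular to mitochondria, among them Mrps18a and Mrps18b by their place in the ribosome, of -0.11. The quartiles of the large-subunit genes, -0.45 and 0.08, overlapped those of the small-subunit genes, -0.41 and 0.28.

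In Kansl1 cKO the same 76 genes were nearly all lower by a small amount, and none was called. No gene of any kind passed the threshold in that comparison (0% of 13031 genes called lower and 0% called higher in edgeR's quasi-likelihood test), and the smallest adjusted p among the 76 was 0.183. At an unadjusted p under 0.05 there were 22 of the 76 lower and 0 higher, against 1077 lower and 968 higher of all 13031 genes. DESeq2, which called 63 genes lower and 34 higher in all, also called 0 of the 76. Values were lower in 69 of the 76, against 48.6% of all genes tested, with a median log2 change of -0.29, against 0.01 for all genes. In 48 of them (63.2%) both Kansl1 cKO libraries lay below both controls, against 20.5% of all genes, and in 2 (2.63%) above, against 28.8% of all genes.

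The lower values were not those of 1 library. Between 66 and 70 of the 76 were lower when each P0.5 library was left out in turn, and between 60 and 66 in each of the 4 pairings of a Kansl1 cKO library with a control. The median was -0.28 over the large-subunit genes (44 of 47 lower) and -0.31 over the small-subunit genes (25 of 29 lower), so that the subunits again differed by little. The log2 change over all genes rose with exonic length in this comparison (Spearman's rho 0.19 over 12959 genes), and the 76 genes are short, with a median of 1340 exonic bases against 3321. Among the 76 themselves rho was 0.015. What part length has in their lower values was not tested.

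The gene with the smallest unadjusted p was Mrpl46 (chr7:78775236-78783531, minus strand), a protein of the central protuberance. It was at 29.97 and 29.41 CPM in P0.5 control and 15.7 and 17.9 in Kansl1 cKO. The groups were clearly apart, at a log2 change of -0.86, while in MOF cKO the same gene differed by -0.02 and its libraries overlapped. Mrps11, which starts 412 bases away on the other strand, was at 11.62 and 17.04 CPM against 8.04 and 9.32 (-0.77).

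Mrps18c, of the small subunit, read 46.7 and 37.5 CPM in P0.5 control and 24.6 and 24.8 in Kansl1 cKO (-0.80). Mrps15, which sits at a bridge between the subunits, read 25.2 and 24.4 against 13.8 and 15.7 (-0.78), and Mrpl11, of the stalk, 28.1 and 32.4 against 18.5 and 18.4 (-0.75). In each the knockout libraries lay close together and below both controls. Mrpl35 was at 47.6 and 46.9 CPM against 29.1 and 31.8 (-0.67), lower here as in MOF cKO. The next genes by unadjusted p were Mrps17 (-0.59), Mrpl36 (-0.65), Mrps10 (-0.72), Mrpl21 (-0.62), Mrpl39 (-0.52), Mrpl55 (-0.71) and Mrps23 (-0.52). All 12 had adjusted p of 0.183 or more in edgeR's quasi-likelihood test.

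The 7 groups by role leaned the same way in Kansl1 cKO, with medians from -0.28 for the central protuberance to -0.49 for the MRPS18 paralogs. The stalk alone held a higher value, Mrpl12 at 66.2 and 58.6 CPM in control and 72.2 and 60.8 in Kansl1 cKO, which overlapped. The 5 genes near the peptidyl transferase centre lay between -0.55 for Mrpl4 and -0.28 for Mrpl27. In all 5 both Kansl1 cKO libraries lay below both controls, as in 63.2% of the 76 genes and 20.5% of all genes. The largest value above 0 was that of Mrps33, at 39.8 and 49.2 CPM in control and 56.1 and 56.3 in Kansl1 cKO (0.30, unadjusted p = 0.116, edgeR's quasi-likelihood test).

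**Figure D3:**
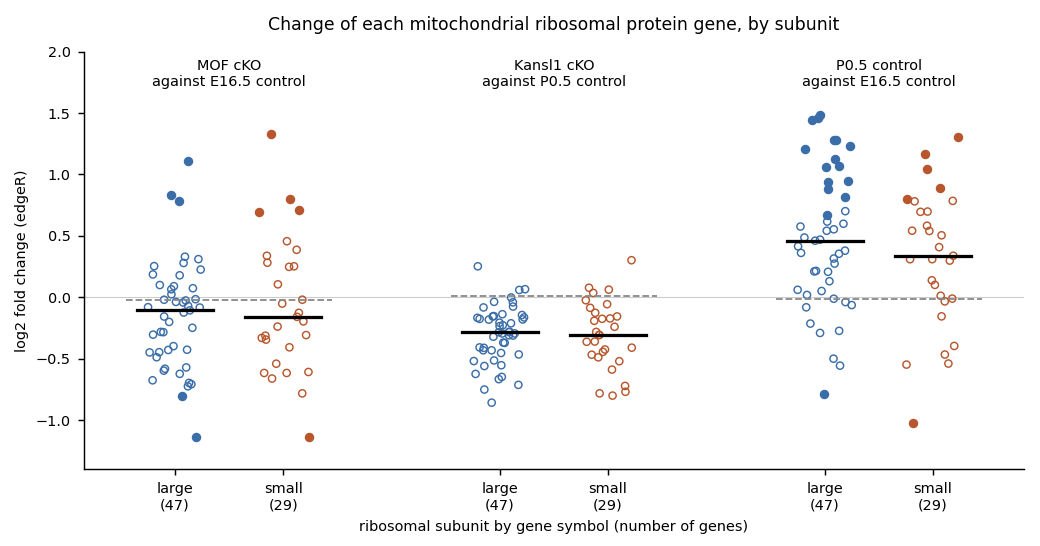
Log2 fold change from edgeR of each of the 76 genes, split by subunit symbol, in 3 comparisons; filled points passed the threshold, the black bar is the median and the dashed line the median of all genes tested. The Kansl1 cKO points lie mostly below 0 with none filled and medians of -0.28 and -0.31, while the MOF cKO points reach from -1.14 to 1.33.

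The 2 knockout comparisons share no library, so that their values can be set side by side. Of the 76 genes, 49 were lower in both, 6 higher in both, 20 higher in MOF cKO and lower in Kansl1 cKO, and 1, Mrps33, the reverse. The log2 changes were ordered alike to a degree (Spearman's rho 0.59 over 76 genes, which are not independent of each other and share length and depth). Mrpl35, Mrps11, Mrpl11, Mrps15, Mrps18c, Mrpl21 and Mrpl55 stood low in both, at -0.61 or less in each. Stage, the way cells were isolated and the sequencer also differ between the comparisons and cannot be told apart from the deleted gene.

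The difference between the 2 knockout effects was tested in a fit over all 8 libraries. It was called for 1 of the 76 genes (1.32%, against 1.76% of 14565 genes called higher and 1.17% called lower). That gene was Mrps18b, where the MOF effect exceeded the Kansl1 effect by 1.54 on the log2 scale (± 0.19 SE, adjusted p = 0.00353, edgeR's quasi-likelihood test). The call was lost with the replicate number as a block, with the same value of 1.54, and without either E16.5 control, MOF cKO replicate 1, P0.5 control replicate 1 or Kansl1 cKO replicate 1. Mrpl17 (1.01), Mrpl54 (0.96), Mrps34 (0.96), Mrps7 (0.84), Mrpl12 (0.69) and Mrps33 (-0.94) had adjusted p between 0.015 and 0.0445 in the same test and were not called.

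**Figure D4:**
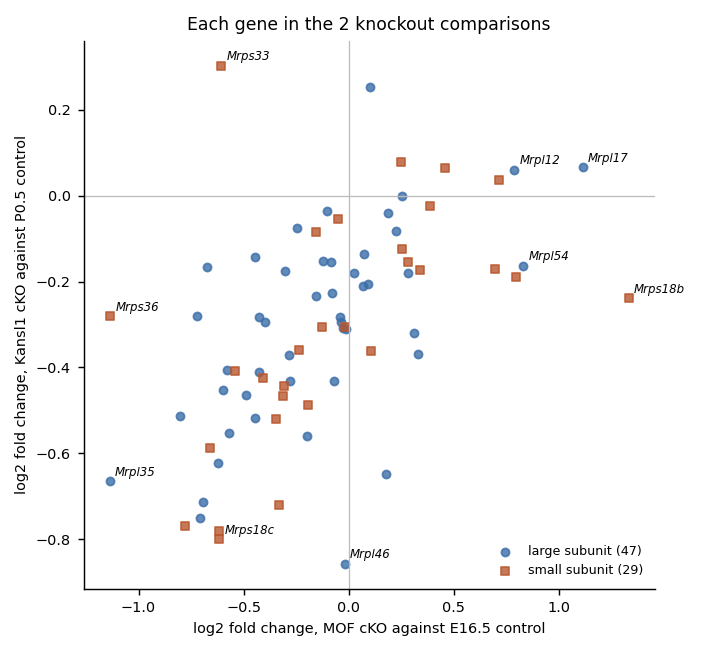
Log2 fold change of each of the 76 genes in MOF cKO (horizontal) and Kansl1 cKO (vertical), with circles for large-subunit and squares for small-subunit symbols. Most points (49) lie at the lower left, Mrps18b lies far right at 1.33 and -0.24, and Mrpl46 lies at the bottom at -0.02 and -0.86.

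The 3 MRPS18 paralogs illustrate how far close relatives diverged. They descend from a single bacterial S18 protein, and the products of Mrps18b and Mrps18c are built into the small subunit while that of Mrps18a is built into the large one. Mrps18a read 22.1 and 20.3 CPM in E16.5 control and 18.1 and 19.0 in MOF cKO, and Mrps18c 20.99 and 19.56 against 14.3 and 12.2. Both were lower without overlap and not called (log2 changes -0.19 and -0.61), unlike Mrps18b. In Kansl1 cKO all 3 were lower, at -0.49 for Mrps18a, -0.24 for Mrps18b and -0.80 for Mrps18c. In all 3 both knockout libraries lay below both controls there, as in 63.2% of the 76 genes and 20.5% of all genes. Among the promoters printed above, those of Mrps18a and Mrps18c hold an ETS match, on opposite strands, and that of Mrps18b an NRF1 motif.

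Between the stages, P0.5 controls had higher levels of many of the genes than E16.5 controls on the TMM scale. This comparison uses the control libraries of both knockouts, and stage, isolation and sequencer cannot be told apart in it. Higher levels were called in 20 of the 76 genes (26.3%, against 22.2% of 13859 genes) and lower levels in 2 (2.63%, against 17.6%). The P0.5 libraries lay above the E16.5 libraries in 48 genes (63.2%, against 36.5% of all genes) and below them in 16 (21.1%, against 45.1%). Medians were 0.46 for large-subunit genes, 15 of which rose, and 0.34 for small-subunit genes, 5 of which rose. With library size alone the median of all genes moved from -0.01 to -0.47, the medians of the subunits to 0.01 and -0.11, and the calls to 8 higher (10.5%, against 15.1% of all genes) and 9 lower (11.8%, against 31.3%). The small-subunit median then turned in direction, and the share of higher calls lay below the background instead of above it.

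Mrpl30 rose the most between stages, from 33.9 and 33.4 CPM at E16.5 to 77.9 and 95.5 at P0.5 (log2 difference 1.48 ± 0.16 SE, adjusted p = 0.000156, edgeR's quasi-likelihood test). Mrpl35 went from 19.7 and 17.5 to 47.6 and 46.9 CPM (1.46) and Mrpl32 from 13.8 and 14.9 to 36.3 and 35.5 (1.44). In all 3 the stages were far apart. The other 17 were Mrps24, Mrpl54, Mrpl33, Mrpl43, Mrpl14, Mrps18c, Mrpl47, Mrpl46, Mrpl39, Mrps31, Mrpl20, Mrpl42, Mrps17, Mrpl48, Mrpl41, Mrps14 and Mrpl15, with differences from 1.30 down to 0.67. Mrps25, particular to mitochondria, fell from 27.5 and 27.7 CPM to 14.1 and 11.1 (-1.02), and Mrpl37, likewise, from 61.2 and 69.4 to 31.2 and 38.5 (-0.79). Neither overlapped, but Mrps25 lost its call without E16.5 control replicate 1, and Mrpl37 without E16.5 control replicate 2 or P0.5 control replicate 1. Of the exonic bases of Mrps25, 58.2% are shared with Nr2c2 on the opposite strand.

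Around the ribosome itself, genes that build and serve it fell in small numbers in MOF cKO. The background was 9.59% of all genes called lower and 10% called higher. Of 7 mitochondrial ribosomal proteins under other symbols, Mrp63 rose (log2 change 0.78) and none fell. Of 23 assembly factors 3 fell (13%) and none rose: the rRNA chaperone Eral1 (-1.23), the RNA-binding protein Fastkd2 (-0.87) and the pseudouridine synthase Trub2 (-1.25), with a list median of -0.28. Of 15 translation factors 3 fell (20%) and none rose, the ribosome recycling factor Gfm2 (-0.71), the elongation factor Guf1 (-1.69) and the initiation factor Mtif2 (-0.93), with a list median of -0.37. In Kansl1 cKO none of the 45 was called, and the medians were -0.11, -0.46 and -0.35.

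Other lists of related function moved differently in MOF cKO. Of 83 cytosolic ribosomal protein genes tested, 75 rose (90.4%, against the same 10% of all genes) and none fell, with a median log2 change of 0.98, against -0.12 for the 76 mitochondrial ones. Of 78 nuclear subunits of the respiratory chain and ATP synthase, 16 rose (20.5%) and 1 fell (1.28%, against 9.59%), with a median of 0.17. In Kansl1 cKO the medians of these lists were 0.12 and -0.04 and none was called. The lists were not tested against each other.

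Many of the 76 genes share their start region with another gene. An oppositely oriented coding gene began within 1000 bases in 32 of them, and 29 distinct pairs were counted, 1 of them made of Mrpl46 and Mrps11. In MOF cKO 6 of the 28 partners outside the 76 genes fell (21.4%, against 9.59% of all genes tested) and 2 rose (7.14%, against 10%). The log2 values of both genes had the same sign in 22 of the 29 pairs in MOF cKO, in 19 in Kansl1 cKO and in 11 between the stages. These counts were not tested against other pairs of genes. The values that follow are those of MOF cKO. Mrps18b starts 45 bases from Ppp1r10, which had a log2 change of 0.06 ± 0.19 SE and was not called. The partners of other called genes were Apba3 for Mrpl54 (0.55 ± 0.12 SE), Eme2 for Mrps34 (0.45 ± 0.19 SE) and Gga3 for Mrps7 (0.20 ± 0.13 SE). These partners had higher values, like the called genes, and were not called. Mrps18c starts 29 bases from Helq, a DNA helicase gene, which fell (-1.21 ± 0.23 SE, adjusted p = 0.00649, edgeR's quasi-likelihood test), while Mrps18c itself was not called. Mrpl49 starts 59 bases from Fau, which encodes a cytosolic ribosomal protein and rose (1.02 ± 0.10 SE, adjusted p = 0.000696, same test), at 0.10 for Mrpl49.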

How the data were processed

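Polyadenylated RNA was sequenced in pairs from libraries of the NEBNext Ultra Directional kit, on HiSeq (E16.5) or NovaSeq (P0.5) instruments. The deposited read counts per gene symbol were made by the authors with HTSeq on mm10. The aligner is HISAT2 in the study's methods and TopHat2 in the submitters' processing notes, and the strand setting and annotation are not given in the sources used here. Counts that named no gene, 21.1% to 26.0% of each library, were left out.

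Counts were filtered with filterByExpr, scaled with TMM and tested with edgeR 4.0.16 (R 4.3.3) on the 4 libraries of each comparison, with Benjamini-Hochberg adjustment over all genes. The tests were tried on simulated data. Alternatives were DESeq2 1.42.0, other scalings, no filter, a replicate block, a fit over 8 libraries and each library left out. Gene positions came from GENCODE M21 and matched all 76 genes. Genes named were those called, up to 12 by smallest p where fewer were called, those of fixed roles and the 3 highest and lowest per length, plus partners of called genes. Partners and other genes named beyond these, and the genes whose promoters are printed, were chosen after their values were seen. The members and lists were chosen with earlier results of these data known.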

Additional observations from a re-analysis of the deposited data

Results flagged for a closer look

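Mrps18b was the single mitochondrial ribosomal protein gene for which the effects of the 2 knockouts differed past the threshold, by 1.54 on the log2 scale (MOF effect minus Kansl1 effect, edgeR's quasi-likelihood test over 8 libraries). It was higher in both MOF cKO libraries than in both E16.5 controls and lower in both Kansl1 cKO libraries than in both P0.5 controls. The knockouts also differ in stage, isolation and sequencer, which cannot be told apart from the gene deleted.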

How the results depend on the processing

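The calls in MOF cKO, 3 lower and 7 higher, varied with the processing. DESeq2 gave 5 lower (6.58%, against 12.4% of all genes). Library size alone gave 21 lower (27.6%, against 19.7%) and 2 higher (2.63%, against 5.51%). Testing every gene with at least 1 count gave 12 lower (15.8%, against 12.5%). An adjusted p of 0.05 with no fold threshold gave 15 lower, with no share over all genes at hand. Leaving out single libraries gave 1 to 5 lower and 4 to 6 higher; Mrps6, Mrps7 and Mrps34 were the least stable of the rises, and Mrps6 lost its call without any 1 of the 4 libraries. In Kansl1 cKO 0 were called under each alternative. Between stages, library size alone gave 9 lower (11.8%, against 31.3% of all genes) and 8 higher (10.5%, against 15.1%). The looser threshold gave 35 higher, again with no share over all genes at hand. With single libraries left out, calls of Mrpl15, Mrpl37, Mrpl41, Mrpl47, Mrps14, Mrps17, Mrps25 and Mrps31 were lost in at least 1 case. The lone remaining library is assumed to vary like the others. The count of genes whose knockout effects differ went from 1 to 5 with DESeq2, which called 518 lower and 976 higher of all 14565 genes. It was also 5 with every gene, where 539 were called lower and 1112 higher of all 18447. The looser threshold gave 7, with no share over all genes at hand. Without some single libraries Mrps18b lost its call, as given above.

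With the replicate number as a block, 14 genes were called lower in MOF cKO (18.4%, against 16.2% of all genes). The 10 calls were kept, and the difference between knockouts was called in 0. The labels do not say that a number marks a pair: same-numbered deviations correlated at 0.206 over genes in the MOF comparison and at -0.202 in the Kansl1 comparison. Crossing the Kansl1 numbers, chosen after seeing the data, also gave 0 calls among the 76. No block was fitted between stages, since nothing ties a control of 1 stage to a control of the other.

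Medians moved by more than their spread between libraries in these cases. With library size alone they were -0.41 (large) and -0.46 (small) in MOF cKO, -0.34 and -0.36 in Kansl1 cKO, and 0.01 and -0.11 between stages, the last reversed. The fit over 8 libraries gave -0.25 for large-subunit genes in Kansl1 cKO and 0.34 and 0.22 between stages. Single libraries left out moved some medians by more than that spread, but not the large-subunit median between stages. The ranges for large and small subunits were -0.166 to -0.0716 and -0.233 to -0.0998 in MOF cKO. They were -0.32 to -0.26 and -0.40 to -0.28 in Kansl1 cKO, and 0.435 to 0.469 and 0.28 to 0.45 between stages.

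Per kb of exon, the share of counts was 0.502%, 0.358%, 0.397% and 0.32% and the log2 ratio of subunits 1.12, 1.11, 1.27 and 1.33, in E16.5 control, MOF cKO, P0.5 control and Kansl1 cKO. By position the ratios were 1.14, 1.05, 1.22 and 1.21, and the MOF cKO share stayed at 0.216%. Values near 0 changed sign. In MOF cKO Mrpl18 was -0.0505 and Mrps2 -0.20 with library size alone, Mrpl46 0.00708 and Mrps30 0.00676 with DESeq2, and 0.00624 and 0.00662 with RLE factors. In Kansl1 cKO Mrpl18 was 0.012 with every gene, 0.0114 with the replicate block and 0.0299 in the fit over 8 libraries. Single libraries left out gave, in MOF cKO, -0.0985 to 0.0267 for Mrpl2, -0.286 to 0.0932 for Mrpl23, -0.177 to 0.105 for Mrpl27, -0.397 to 0.281 for Mrpl46, -0.0719 to 0.258 for Mrps2 and -0.182 to 0.165 for Mrps30, and in Kansl1 cKO -0.0996 to 0.176 for Mrpl12, -0.167 to 0.164 for Mrpl18, -0.212 to 0.15 for Mrpl38 and -0.365 to 0.108 for Mrpl44. The cause was not tested. Each group had 2 libraries and every value rested on 95 or more counts, and the spread between libraries was not separated from counting noise.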
